A study of Mus musculus with 8 samples.

Results

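The 9 genes encoding PDGF, Kit and CSF1 family ligands and receptors were followed through the cells of the adult mouse dentate gyrus, namely the ligands Pdgfa, Pdgfb, Kitl, Csf1 and Il34 and the receptors Pdgfra, Pdgfrb, Kit and Csf1r. They were chosen by name, as 9 of the 31053 genes counted, by membership of these families and with no threshold on a measured value, though earlier results of these data were known. RNA was counted in single cells of Nestin-GFP mice aged 8 weeks taken 15 days after surgery, which was a sham craniotomy in Control and a controlled cortical impact on one side of the brain in TBI. GFP is driven by Nestin control sequences, and the dentate gyri were micro-dissected, pooled by condition and sorted for GFP, so the sort limits which cells were sampled and in what proportion. The labels list 4 Control and 4 TBI animals and the study's methods give larger numbers, but each condition gave 1 library, and no cell can be traced to an animal. A condition therefore has no replicate, no test between conditions was possible, and every Control and TBI value compares 2 libraries and not 2 groups of animals.

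The platelet-derived growth factors act as dimers, PDGF-AA through the receptor encoded by Pdgfra and PDGF-BB mainly through the receptor encoded by Pdgfrb. In brain, PDGF-AA drives division of oligodendrocyte precursor cells (OPC), and PDGF-BB from endothelium recruits and holds pericytes on capillaries. Stem cell factor, the product of Kitl, binds the KIT receptor, and CSF1 and interleukin 34 share the receptor encoded by Csf1r, on which microglia depend for survival. The 4 receptors belong to one class of receptor tyrosine kinases, whose genes lie in neighbouring pairs.

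After a filter on cells, the Control library held 3049 cells and the TBI library 5036, with 24629521 and 31503415 unique molecular identifiers (UMIs, tags that mark each captured RNA molecule), and 3 cell barcodes occurred in both. Median depth was 6928 UMIs per Control cell and 5663 per TBI cell. Cells were clustered without the 9 genes, and the clusters were named from markers that exclude them, which gave 12 types. Of 39 clusters, 5 with 862 cells stayed unnamed, so the types do not hold every UMI of a gene. Every type carried UMIs of each of its own markers over both libraries. Levels are given as CPM, the UMIs of a gene per 1000000 UMIs after the cells of a type were added up, with Malat1 left out of the total. Brackets give 95% intervals, exact Poisson for a level, exact conditional for a ratio of libraries and exact binomial (Clopper-Pearson) for a share of cells, and all cover counting error only.

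The 9 genes were divided among vascular, glial and Cajal-Retzius-like cells. Kitl and Pdgfb were highest in endothelial-like cells, Pdgfrb and Il34 in pericyte-like cells, Pdgfa in smooth-muscle-like cells, Pdgfra in OPC-like cells, Csf1 in oligodendrocyte-like cells, Kit in Cajal-Retzius-like cells and Csf1r in microglia-like cells, among types of at least 50 cells. The small fibroblast-like cluster of 31 cells exceeded that leading type for Csf1, and its levels of Pdgfra and Il34 were above the leading ones with overlapping intervals.

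**Figure D1:**
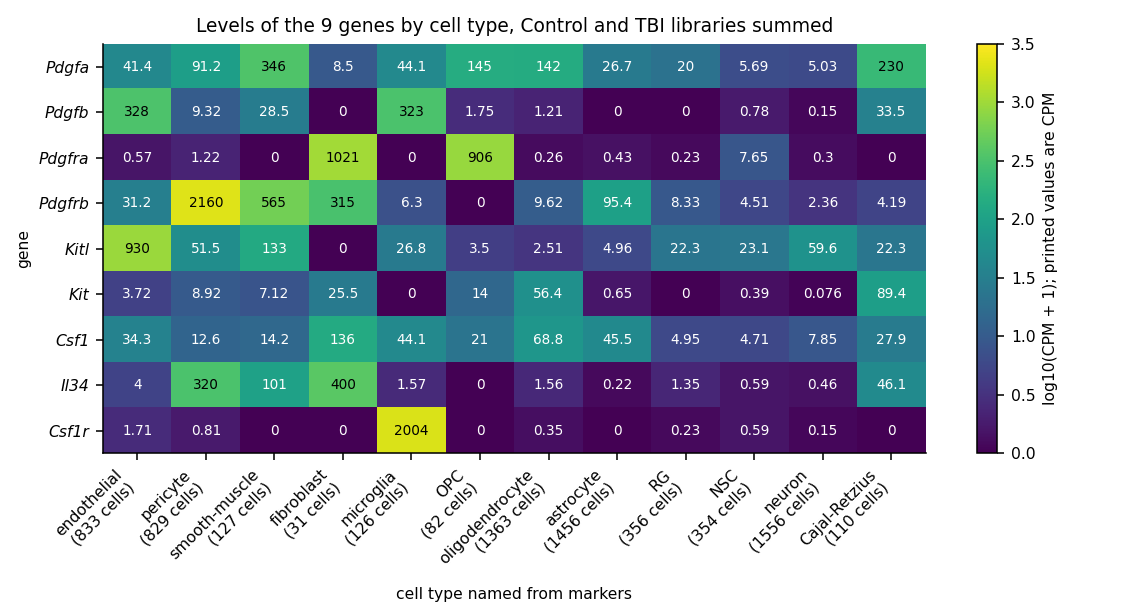
Level of each of the 9 genes (rows) in each named cell type (columns, with cell numbers), Control and TBI summed; printed values are CPM and the colour scale is log10(CPM + 1). Csf1r stood at 2004 CPM in microglia-like cells and at 1.71 CPM or less in every other type, while Pdgfa was spread over smooth muscle, Cajal-Retzius, OPC and oligodendrocyte.

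The ligand Pdgfa, which encodes the A chain of PDGF, had a level of 346 CPM (308 to 389) in smooth-muscle-like cells, 230 CPM (197 to 268) in Cajal-Retzius-like cells, 145 CPM (116 to 180) in OPC-like cells and 142 CPM (135 to 149) in oligodendrocyte-like cells. The first 3 of these levels had intervals apart from one another, whereas the last pair overlapped. In OPC-like cells 33 of the 83 UMIs lay in 1 cell, and without it the level was 91.4 CPM, below that of oligodendrocyte-like cells. Below them came pericyte-like cells at 91.2 CPM, microglia-like cells at 44.1 CPM, endothelial-like cells at 41.4 CPM, astrocyte-like cells at 26.7 CPM and RG-like (radial glia-like) cells at 20.0 CPM. Neural stem cell-like (NSC-like) cells at 5.69 CPM and neuron-like cells at 5.03 CPM were lowest, beside the fibroblast-like cluster with a single UMI. The NSC-like markers were the cell-cycle genes Mki67, Top2a, Cdk1, Cenpf, Birc5 and Ube2c with Hmgn2, Neurog2, Sox4 and Sox11. That name therefore stands mainly for dividing cells, and cluster 29, led by Hopx and Fabp7, was named astrocyte-like. The RG-like markers also held Ccnd2 and the DNA replication genes Mcm2, Mcm3 and Mcm6, and Mcm6 was among the leading genes of RG-like clusters 15 and 27. RG-like cells held 7685 CPM of the NSC-like list in Control and 7065 CPM in TBI, beside 6898 and 6428 CPM of their own list. The RG-like name therefore does not stand for radial glia alone. By number of molecules the order was another one, since 47.3% of the 3472 Pdgfa UMIs came from oligodendrocyte-like cells and 8.41% from smooth-muscle-like cells. For shares at equal depth, cells with at least 2000 UMIs were thinned to 2000 UMIs, and shallower cells were left out. This kept 1030 of 1456 astrocyte-like, 96 of 126 microglia-like and 729 of 829 pericyte-like cells, so thinned and unthinned shares cover different cells. Among the cells kept, 45.2% of 126 smooth-muscle-like cells (36.4 to 54.3) and 23.7% of 1255 oligodendrocyte-like cells (21.3 to 26.1) held a Pdgfa UMI. The share was 0.461% of 1519 neuron-like cells. Over all cells, without thinning, these shares were 85.0%, 58.8% and 3.66%, at median depths of 6996, 8680 and 8875 UMIs.

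Pdgfa also varied within types. In the 3 pericyte-like clusters it stood at 57.0 CPM (44.4 to 72.0) in cluster 0, at 61.6 CPM (32.8 to 105) in cluster 28 and at 138 CPM (116 to 163) in cluster 10. Cluster 10 was 85.6% TBI cells, and its summed level of 12 immediate early genes, which answer to stimulation and to tissue dissociation, was 33253 CPM against 1035 CPM in cluster 0. Whether those genes play a part in the difference was not tested. Within cluster 10 Pdgfa was 169 CPM in Control and 132 CPM in TBI, from 29 and 113 UMIs, a ratio of 0.78 (0.52 to 1.22) whose interval held 1. Of the oligodendrocyte-like clusters, 4 lay between 119 and 161 CPM and cluster 17, whose median cell had 2104 UMIs and 36.8% mitochondrial UMIs, lay at 49.4 CPM. The unnamed cluster 6, which carried all 8 oligodendrocyte markers, had 188 CPM. It scored 2.43 for oligodendrocyte-like, with astrocyte-like next at -0.40. It stayed unnamed because its leading genes held Apod, of the fibroblast list, and no oligodendrocyte marker. That fibroblast list also stood at 1823 CPM in Control and 1835 CPM in TBI oligodendrocyte-like cells.

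Pdgfb, which encodes the B chain, reached 328 CPM (309 to 348) in endothelial-like cells and 323 CPM (280 to 370) in microglia-like cells, levels that overlapped, and then fell away to 33.5 CPM in Cajal-Retzius-like, 28.5 CPM in smooth-muscle-like and 9.32 CPM in pericyte-like cells. The other 7 types stood at 1.75 CPM or less, and RG-like, astrocyte-like and fibroblast-like cells had no UMI. Endothelial-like cells gave 77.8% of all 1475 Pdgfb UMIs and microglia-like cells 13.9%. The 12 immediate early genes summed to 29175 CPM in Control and 23661 CPM in TBI microglia-like cells. In endothelial-like cells they summed to 11765 and 14183 CPM. Whether they play a part in the Pdgfb levels was not tested. The 3 endothelial-like clusters were alike, at 330, 329 and 324 CPM. The microglia-like clusters were not, with 360 CPM (312 to 413) in cluster 31 and 27.8 CPM (3.36 to 100.3) in cluster 35, whose median cell held 1529 UMIs. Per 100 UMIs of the endothelial markers, Control and TBI microglia-like cells held 811 and 776 Pdgfb UMIs, against 1.43 and 1.27 in endothelial-like cells themselves. In cells thinned to 2000 UMIs, 42.9% of endothelial-like cells (39.4 to 46.4) and 37.5% of microglia-like cells (27.8 to 48.0) held Pdgfb, against 0 of 1519 neuron-like cells. The unthinned shares were 66.4%, 42.9% and 0.129%.

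Kitl, the ligand of KIT, was at 930 CPM (898 to 962) in endothelial-like cells, 133 CPM (109 to 160) in smooth-muscle-like cells, 59.6 CPM (55.5 to 63.9) in neuron-like cells and 51.5 CPM (42.9 to 61.2) in pericyte-like cells. Endothelial-like cells gave 69.3% of the 4693 Kitl UMIs and neuron-like cells 16.7%. Microglia-like, NSC-like, Cajal-Retzius-like and RG-like cells formed one overlapping set between 22.3 and 26.8 CPM, and OPC-like, oligodendrocyte-like and astrocyte-like cells had 4.96 CPM or less. With 2000 UMIs a cell, 76.7% of endothelial-like cells (73.6 to 79.6) and 10.3% of neuron-like cells (8.85 to 12.0) held a Kitl UMI, against 0.478% of oligodendrocyte-like cells. Unthinned, the shares were 92.3%, 25.6% and 1.10%, at median depths of 3975, 8875 and 8680 UMIs.

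Among the neuron-like clusters Kitl ran from near 0 to above 200 CPM. Cluster 7, led by Tac2 and with Eomes, a gene of intermediate progenitors, among its leading genes, had 1.54 CPM (0.499 to 3.59), and cluster 3, with Dcx and Igfbpl1 among its leading genes, had 8.21 CPM (5.41 to 12.0). Cluster 1, led by the immature neuron gene Calb2, had 55.5 CPM (48.2 to 63.5). Cluster 8, with Camk2b and Grin2b among its leading genes, had 213 CPM (195 to 232). The remaining clusters, 32 and 34, had 38.8 and 146 CPM. Median depths of clusters 7, 3, 1 and 8 were 10336, 9675, 9153 and 7740 UMIs. The thinned shares with Kitl were 0.312%, 1.99%, 8.13% and 29.3% in the same order of clusters. Endothelial markers were scarce in these cells, at 15.7 CPM in cluster 1 and 13.3 CPM in cluster 8 for the sum of all 8 genes.

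In endothelium, Kitl was 1142 CPM (1080 to 1206) in cluster 16 and 828 and 829 CPM in clusters 5 and 18. Cluster 16 was the one with arterial genes, the 6-gene artery list standing at 1007 CPM there and at 95.7 and 103 CPM in the others. The capillary list ran the other way, at 4062 CPM in cluster 16 and 5224 and 5842 CPM in the others. A further 114 cells, the unnamed cluster 25 led by hemoglobin genes, were nearest to endothelium and had 645 CPM of Kitl (516 to 798) and 160 CPM of Pdgfb (98.7 to 244), at a median of 954 UMIs a cell.

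The ligands of Csf1r had different leading types, though both were highest in the small fibroblast-like cluster. Csf1 had 136 CPM (77.8 to 221) from 16 UMIs in the fibroblast-like cluster, 68.8 CPM (64.1 to 73.8) in oligodendrocyte-like cells, 45.5 CPM (39.5 to 52.0) in astrocyte-like cells and 44.1 CPM (29.3 to 63.7) in microglia-like cells. Of the 1651 Csf1 UMIs, 48.1% lay in oligodendrocyte-like and 12.8% in astrocyte-like cells. After thinning, 9.32% of oligodendrocyte-like cells (7.77 to 11.1) and 8.45% of astrocyte-like cells (6.82 to 10.3) held Csf1, against 1.45% of neuron-like cells. Unthinned, these were 36.0%, 12.0% and 5.78%, at median depths of 8680, 3056 and 8875 UMIs. Il34 was 400 CPM (294 to 532) in the fibroblast-like cluster, 320 CPM (298 to 343) in pericyte-like cells, 101 CPM (80.5 to 125) in smooth-muscle-like cells and 46.1 CPM (31.7 to 64.7) in Cajal-Retzius-like cells. It was 4.00 CPM or less in the other types, neuron-like cells included at 0.457 CPM. Pericyte-like cells gave 78.4% of its 1006 UMIs. Pericyte-like cells carried an Il34 UMI in 42.8% of 729 cells at 2000 UMIs (39.2 to 46.5) and in 54.4% unthinned, against 0.132% and 0.386% of neuron-like cells.

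**Figure D2:**
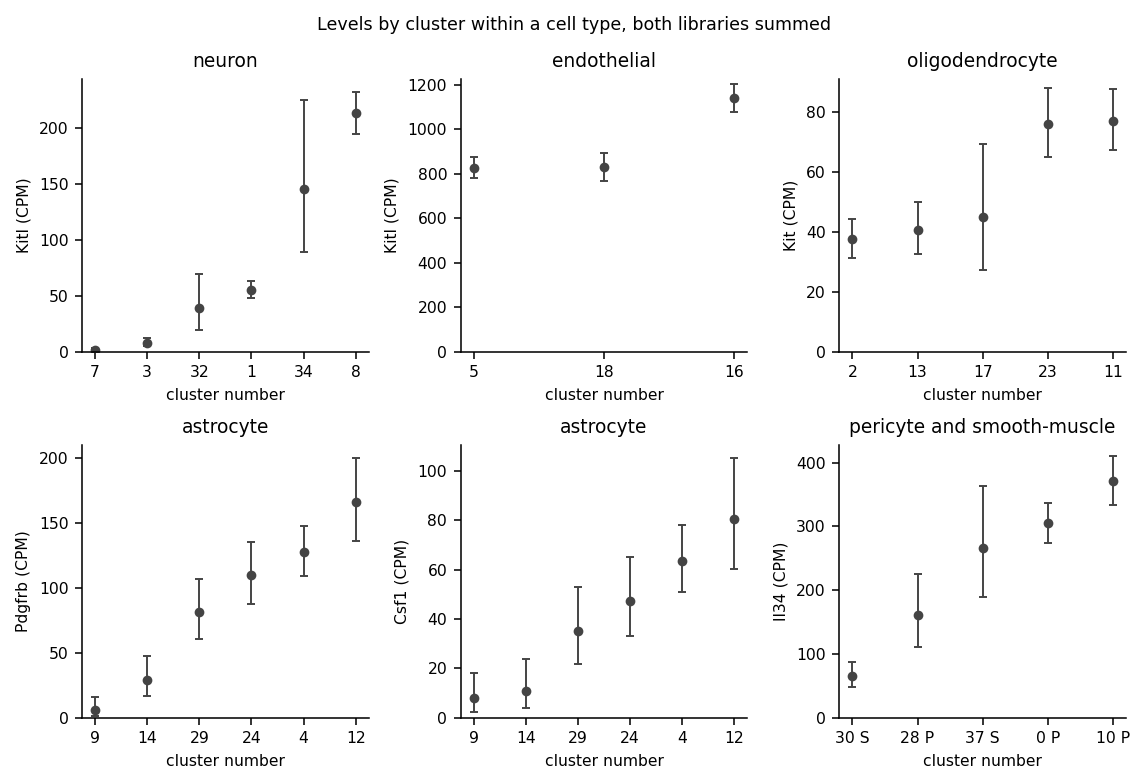
Level in CPM (vertical axis, linear, bars are 95% Poisson intervals) of Kitl, Kit, Pdgfrb, Csf1 and Il34 by cluster within a cell type, both libraries summed. In the last panel P marks pericyte-like and S smooth-muscle-like clusters. Kitl ran from 1.54 CPM in cluster 7 to 213 CPM in cluster 8 among neuron-like cells, and Pdgfrb and Csf1 ordered the 6 astrocyte-like clusters alike, with clusters 9 and 14 lowest.

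Among the receptors, Pdgfra, the receptor for PDGF-AA, was found at 1021 CPM (846 to 1220) in the fibroblast-like cluster and at 906 CPM (829 to 987) in OPC-like cells. NSC-like cells followed at 7.65 CPM and all other types at 1.22 CPM or less. OPC-like cells were 1.08% of all UMIs and gave 74.5% of the 695 Pdgfra UMIs. At 2000 UMIs a cell, 54.1% of 74 OPC-like cells (42.1 to 65.7) and 76.9% of 26 fibroblast-like cells (56.4 to 91.0) held Pdgfra, against 0.132% of neuron-like cells, and unthinned the shares were 57.3%, 74.2% and 0.257%.

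Most Pdgfra UMIs and most Pdgfa UMIs of OPC-like cells lay in different cells, and some cells held neither gene. The cells were split by whether a cell held more UMIs of 5 precursor genes (Cspg4, C1ql1, Lhfpl3, Cacng4, Sox6) or of 5 genes of committed precursors (Gpr17, Neu4, Bmp4, Enpp6, Bcas1). In the 46 cells on the precursor side Pdgfra stood at 1803 CPM (1648 to 1969) and Pdgfa at 29.0 CPM (12.5 to 57.1). In the 33 cells on the committed side Pdgfra stood at 10.8 CPM (2.22 to 31.4) and Pdgfa at 265 CPM (208 to 333). A single Control cell held 33 of the 74 Pdgfa UMIs on that side, which the interval does not take into account. The remaining 3 cells were equal, and 5 and 2 cells of the 2 sides lay within 3 UMIs of equal. Of 82 OPC-like cells, 47 held Pdgfra, 26 held Pdgfa and 7 held both. The split is a cut on a score and not a pair of cell types, and some of its genes were also used to name the cluster.

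**Figure D3:**
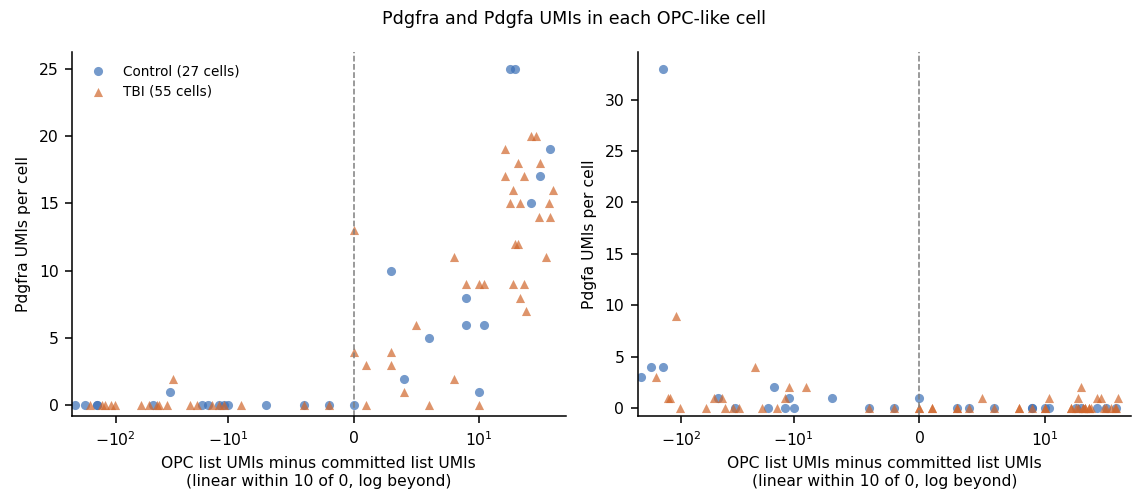
UMIs of Pdgfra (left) and Pdgfa (right) in each of the 82 OPC-like cells against the UMIs of the 5 precursor genes minus those of the 5 committed genes (horizontal axis, linear near 0 and logarithmic beyond 10). Cells to the right of the dashed line carried nearly all Pdgfra, and 33 Pdgfa UMIs lay in a single Control cell far to the left.

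Pdgfrb, the receptor for PDGF-BB and a usual marker of pericytes, was 2160 CPM (2102 to 2219) in pericyte-like cells, 565 CPM (515 to 618) in smooth-muscle-like cells, 315 CPM (222 to 434) in the fibroblast-like cluster and 95.4 CPM (86.8 to 105) in astrocyte-like cells. Each of these intervals was apart from the next. Pericyte-like cells gave 80.1% of the 6650 UMIs, and 96.7% of them held a UMI at 2000 UMIs a cell (95.1 to 97.9). The corresponding share was 14.9% of 1030 astrocyte-like cells (12.7 to 17.2), 0.527% of neuron-like cells and 0 of 96 microglia-like cells. Unthinned, the shares were 97.3%, 23.9%, 1.61% and 1.59%, at median depths of 3161, 3056, 8875 and 5450 UMIs.

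In astrocyte-like cells Pdgfrb had more UMIs than the 8 pericyte markers together. There were 254 Pdgfrb UMIs per 100 UMIs of the 8 pericyte markers in Control astrocyte-like cells and 144 in TBI ones, against 6.99 and 6.15 in pericyte-like cells. When cells with 5 or more pericyte-marker UMIs were left out, the level was 94.2 CPM in Control and 93.4 CPM in TBI. This left 744 of 745 Control and 710 of 711 TBI cells, so it could hardly change the level. Across the 6 astrocyte-like clusters Pdgfrb was lowest in clusters 9 and 14 (6.27 and 29.4 CPM), whose median cells had 1617 and 1853 UMIs, and highest in cluster 12 at 166 CPM (136 to 200), whose median was 2736 UMIs. Clusters 29, 24 and 4 lay between, at 81.1, 110 and 127 CPM. Csf1 had the same order, at 7.84 and 11.0 CPM in clusters 9 and 14 and 80.6 CPM (60.3 to 105) in cluster 12. In the mural cells, Pdgfrb was 2589, 1791 and 1464 CPM in pericyte-like clusters 0, 10 and 28, and the smooth-muscle-like clusters differed, with 388 CPM (343 to 437) in cluster 30 and 1405 CPM (1219 to 1610) in cluster 37. Cluster 37 also held more Il34, at 266 CPM against 66.1 CPM, and more of the pericyte markers, at 21131 CPM against 4607 CPM.

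Kit, the receptor for stem cell factor, was not found in NSC-like and RG-like cells beyond trace counts. Its level was 89.4 CPM (68.8 to 114) in Cajal-Retzius-like cells, 56.4 CPM (52.1 to 60.9) in oligodendrocyte-like cells, 25.5 CPM from 3 UMIs in the fibroblast-like cluster and 13.99 CPM (6.04 to 27.6) in OPC-like cells. All 8 Kit UMIs of OPC-like cells lay on the precursor side of the split, at 29.0 CPM (12.5 to 57.1). NSC-like cells had 0.392 CPM, neuron-like cells 0.0762 CPM and RG-like cells no UMI, which allows up to 0.83 CPM. Oligodendrocyte-like cells gave 82.0% of the 793 Kit UMIs. At 2000 UMIs a cell, 17.0% of Cajal-Retzius-like cells (10.1 to 26.2) and 9.004% of oligodendrocyte-like cells (7.48 to 10.7) held a UMI, against 0 of 1519 neuron-like cells, and the unthinned shares were 37.3%, 23.3% and 0.0643%. Within the oligodendrocyte lineage, clusters 11 and 23 had 77.2 and 76.0 CPM, and clusters 17, 13 and 2 had 44.9, 40.7 and 37.5 CPM. The unnamed cluster 6 had 6.03 CPM (3.57 to 9.52) and is not part of the oligodendrocyte-like level of Kit. Csf1 stood at 80.0 CPM in cluster 6 and 69.0 CPM in cluster 2, and Pdgfa at 188 CPM and 161 CPM. These differences between clusters were not tested.

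Csf1r, the receptor for CSF1 and interleukin 34, had 98.6% of its 1291 UMIs in microglia-like cells, at 2004 CPM (1895 to 2117). Every other type stood at 1.71 CPM or less. Thinned in the same way, 92.7% of 96 microglia-like cells (85.6 to 97.0) held a UMI, against 0.0658% of neuron-like cells, and the unthinned shares were 89.7% and 0.129%. Clusters 31 and 35 had 2107 and 1194 CPM.

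All 9 genes were found in the annotation of GRCm38 (GENCODE vM21), and the receptors lie in pairs. Pdgfra (chromosome 5, 75152292 to 75198215) and Kit (chromosome 5, 75574916 to 75656722) are on the plus strand, 376700 bases apart, with 5 annotated genes between them of which 0 are protein coding. They did not share a leading type, although OPC-like cells, which led for Pdgfra, held 13.99 CPM of Kit.

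The promoters of the chromosome 5 receptors are shown because these neighbours, read from the same strand, differed in leading type and had a promoter sequence available. None was available for Pdgfrb and Csf1r. Of 2 Kit promoter entries the first by position was used, and its window was cut from 250 to 179 bases at the first annotated exon. Both windows were taken from RefSeq on GRCm38.p6, lie upstream of the first annotated exon and are given on the plus strand, for Pdgfra chr5:75152001-75152250 and for Kit chr5:75574737-75574915, with the motif GGGCGG in capitals.
Pdgfra: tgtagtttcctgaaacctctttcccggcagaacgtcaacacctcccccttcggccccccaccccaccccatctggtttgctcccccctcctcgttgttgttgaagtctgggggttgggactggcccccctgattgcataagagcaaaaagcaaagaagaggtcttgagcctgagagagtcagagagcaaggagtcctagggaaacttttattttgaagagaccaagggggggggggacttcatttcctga
Kit: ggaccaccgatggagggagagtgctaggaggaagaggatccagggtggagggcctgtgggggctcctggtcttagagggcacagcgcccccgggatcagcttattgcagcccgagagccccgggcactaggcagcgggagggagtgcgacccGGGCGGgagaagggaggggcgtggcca
The Pdgfra window of 250 bases has 54.4% G and C, more than 56.5% of 32851 promoter windows of that length, and the Kit window of 179 bases has 69.3%, more than 90.8% of windows of its length. The TATA box TATAAA, the GC box GGGCGG, the E box CACGTG and the SOX motif ACAAAG were searched on both strands, and no match overlapped another. The only match was the GGGCGG in the Kit window, 98 bases before its RefSeq start, and 20.9% of windows of that length hold this motif. The other motifs occur in 8.34%, 3.67% and 12.2% of windows of 179 bases, and in windows of 250 bases the 4 motifs occur in 12.4%, 32.7%, 6.02% and 16.5%. A match is a description of the sequence and says nothing of a factor.

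The other pair of receptors, Pdgfrb (chromosome 18, 61045150 to 61085061) and Csf1r (chromosome 18, 61100598 to 61132149), is on the plus strand, 15536 bases apart with 0 genes between them, and also differed in leading type. Of the ligands, Pdgfa (chromosome 5, 138976014 to 138997370), Pdgfb (chromosome 15, 79995874 to 80014977), Csf1 (chromosome 3, 107741048 to 107760469) and Il34 (chromosome 8, 110741829 to 110805924) are on the minus strand, and Kitl (chromosome 10, 100015630 to 100100416) is on the plus strand.

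Several pairs of the genes were detected in the same cells. All 54 microglia-like cells with a Pdgfb UMI also held Csf1r, as 113 of 126 such cells did. In endothelial-like cells 521 of 833 held both Pdgfb and Kitl, which 553 and 769 cells held, and 34.0% of cells at 2000 UMIs held both. In pericyte-like cells 448 of the 451 with Il34 held Pdgfrb, which 807 of 829 cells held. In smooth-muscle-like cells 97 of 127 held both Pdgfa and Pdgfrb, which 108 and 113 cells held. In oligodendrocyte-like cells 207 of 1363 held both Pdgfa and Kit and 121 held both Kit and Csf1. Pdgfa, Kit and Csf1 were held by 801, 317 and 491 of these cells. At 2000 UMIs 19 of 1255 cells held both Pdgfa and Kit, and 6 held both Kit and Csf1. At that depth 297 cells held Pdgfa, 113 Kit and 117 Csf1. These counts depend on depth and are descriptions. Whether any pair shared cells more or less often than independent genes would was not tested.

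The Control and TBI libraries were compared type by type for the 9 genes. With 1 library per condition, an effect of TBI cannot be told apart from other differences between the libraries. With 20 UMIs or more in a type over both libraries, 50 pairs of gene and type could be compared in the 11 types with at least 20 cells in each library, and 20 of them differed by 1.5-fold or more, 15 higher and 5 lower in TBI. Over all genes compared, 7.45% to 34.3% passed that limit, depending on the type. The limit of 20 UMIs is on the sum of both libraries, and some pairs reached it through the library where they were higher. Pdgfb in pericyte-like cells had 2 Control and 21 TBI UMIs, and Csf1 in microglia-like cells had 21 and 7. The shares of the 9 genes and of all genes, here and by type, are therefore not strictly like for like. For 16 of the 20 the counting interval of the ratio left out 1. With called doublets removed before clustering 14 of 42 pairs passed, and with cells thinned to 2000 UMIs 4 of 24 did. For every thinned ratio and count of pairs the thinned cells were clustered and named anew, so the types also hold other cells. The thinned shares of cells given above used the main clusters. In their leading types, 8 of the 9 genes differed between libraries by less than 1.5-fold, and the exception was Pdgfra.

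In endothelial-like cells 2 of 5 compared genes passed 1.5-fold, against 11.1% of all genes compared there. Kitl had 1192 Control and 2060 TBI UMIs, 892 and 953 CPM, a ratio of 1.07 (0.99 to 1.15). Its ratios in clusters 5, 16 and 18 were 1.09, 1.03 and 1.07, each with an interval that held 1. Pdgfb was 341 CPM in Control and 320 CPM in TBI, a ratio of 0.94 (0.83 to 1.06). Over the type, the ratios of Kitl and Pdgfb lay within counting error of no difference. Csf1 was lower in TBI, 44.1 CPM in Control and 28.2 CPM in TBI from 59 and 61 UMIs, a ratio of 0.64 (0.44 to 0.93). In clusters 5, 16 and 18 it was 0.70 (0.41 to 1.18), 0.53 (0.22 to 1.26) and 0.66 (0.31 to 1.43). These intervals all held 1, and the clusters are parts of the same 2 libraries. Without called doublets the ratio of Csf1 over the type was 0.68 (0.47 to 1.01).

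Pdgfrb in endothelial-like cells went from 9.73 CPM in Control to 44.4 CPM in TBI, from 13 and 96 UMIs, a ratio of 4.56 (2.55 to 8.88). Without the 22 called doublets 11 Control and 10 TBI UMIs remained, and the ratio was 0.57 (0.22 to 1.477). The pericyte markers moved with it, all 8 of them detected, at 536 CPM in Control and 907 CPM in TBI. Cluster 16 held 9 Control and 81 TBI UMIs of Pdgfrb. In oligodendrocyte-like cells 2 of 5 compared genes passed 1.5-fold, against 9.37% of all genes. One was Pdgfrb, with 26 and 85 UMIs and 5.97 and 11.8 CPM, a ratio of 1.98 (1.26 to 3.21), and without called doublets 3 Control and 2 TBI UMIs were left. Of the 111 UMIs, 102 lay in cluster 13, in which 14.4% of cells were called doublets. The other was Kitl, with 6 and 23 UMIs and a ratio of 2.32 (0.92 to 6.98), of which 2 and 5 were left without doublets. The 8 pericyte markers were at 50.1 CPM in Control and 261 CPM in TBI oligodendrocyte-like cells.

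Pdgfa, Kit and Csf1 each had more UMIs in oligodendrocyte-like cells than in any other named type, and none passed 1.5-fold there. Pdgfa was 143 CPM in Control and 142 CPM in TBI, a ratio of 0.99 (0.90 to 1.10). Kit was 51.9 and 59.1 CPM, a ratio of 1.14 (0.97 to 1.34), with 1.59 (1.14 to 2.27) in cluster 23 and 0.94 to 1.38 in the other 4 clusters. Csf1 was 60.4 CPM in Control and 74.0 CPM in TBI, a ratio of 1.22 (1.05 to 1.42), and in cluster 11 it was 52.4 and 78.2 CPM, a ratio of 1.49 (1.10 to 2.04). In cluster 17 the ratio of Csf1 was 0.76 (0.30 to 1.93).

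In pericyte-like cells 2 of 7 compared genes passed 1.5-fold, against 17.2% of all genes. Pdgfrb was 2464 CPM in Control and 2049 CPM in TBI, from 1628 and 3701 UMIs, a ratio of 0.83 (0.78 to 0.88). Within cluster 0 the ratio was 0.92 (0.86 to 0.99) and within cluster 10 it was 0.98 (0.86 to 1.10), and cluster 10, the lower of the pair, held 44 Control and 261 TBI cells. Il34 was 321 and 319 CPM, a ratio of 1.00 (0.85 to 1.17), and Pdgfa was 92.3 and 90.8 CPM, a ratio of 0.98 (0.73 to 1.34). Kit went from 19.7 to 4.98 CPM on 13 and 9 UMIs, a ratio of 0.25 (0.10 to 0.64). Pdgfb had 2 Control and 21 TBI UMIs, a ratio of 3.84 (0.94 to 33.8) whose interval held 1. Without called doublets it had 0 Control and 19 TBI UMIs, an interval from 1.81 upward, and in cells with fewer than 5 UMIs of the endothelial markers the ratio was 3.16 (0.75 to 28.2).

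In smooth-muscle-like cells 3 of 5 compared genes passed 1.5-fold, against 28.5% of all genes, whose median log2 ratio was 0.10. Pdgfrb was 401 CPM in Control and 825 CPM in TBI, a ratio of 2.06 (1.71 to 2.48). Il34 was 61.7 and 163 CPM, a ratio of 2.64 (1.67 to 4.24), and Kitl was 98.4 and 188 CPM, a ratio of 1.91 (1.29 to 2.83). Pdgfa, which led in this type, was 299 and 422 CPM, a ratio of 1.41 (1.11 to 1.79). The 8 pericyte markers stood at 4716 CPM in Control and 11899 CPM in TBI, and the 8 endothelial markers at 515 and 983 CPM. Per 100 pericyte-marker UMIs there were 8.51 Pdgfrb UMIs in Control and 6.94 in TBI, and 1.31 and 1.37 Il34 UMIs. The share of cluster 37, which had more pericyte markers, was 14 of 65 Control cells and 22 of 62 TBI cells, and within cluster 30 the pericyte markers were 2877 CPM in Control and 7772 CPM in TBI. The part of the pericyte markers in these ratios was not tested. Without called doublets Kitl had a ratio of 1.56 (1.03 to 2.35), and with cells thinned to 2000 UMIs and clustered anew Il34 had a ratio of 1.14.

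**Figure D4:**
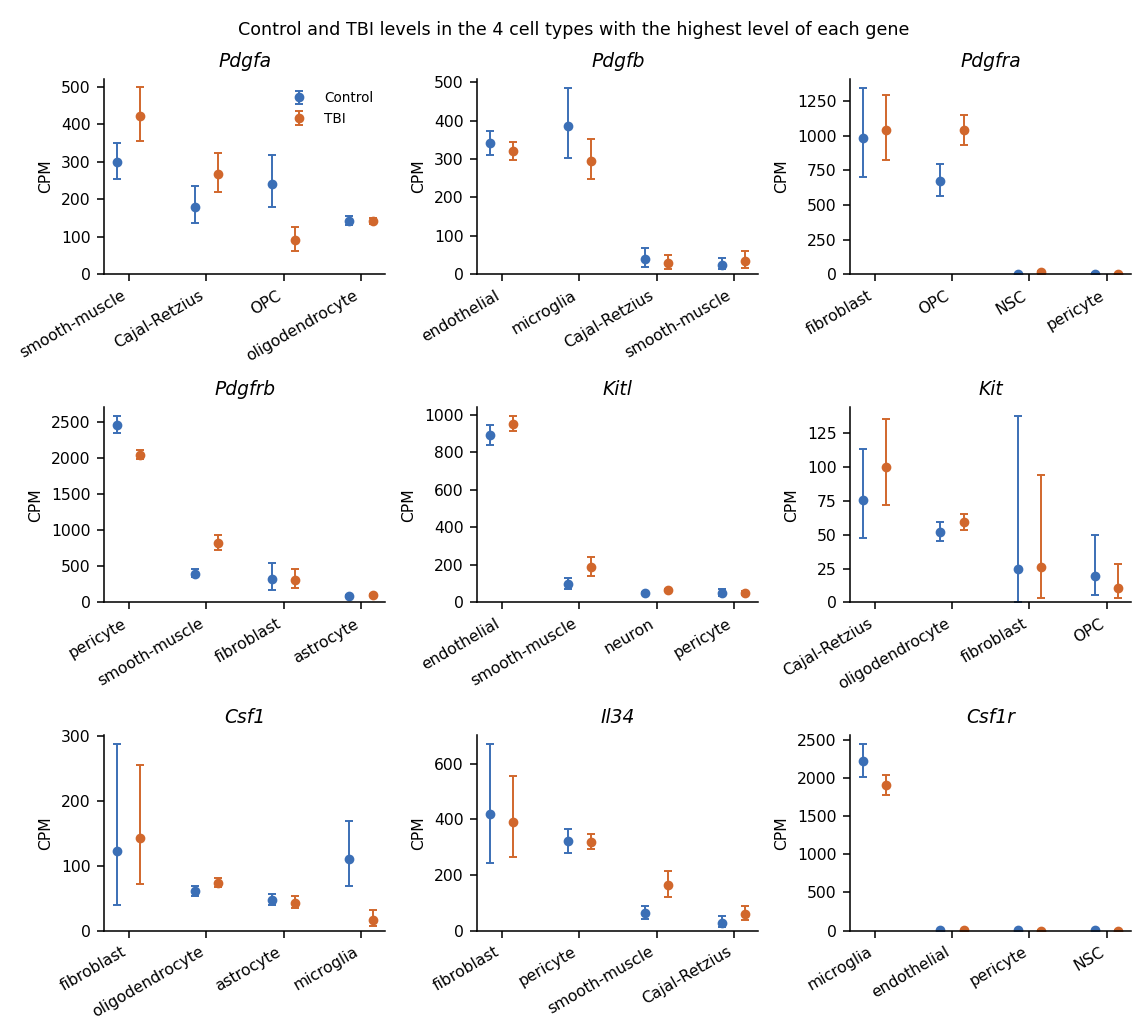
Levels in CPM (vertical axes, linear) of each gene in the 4 cell types where it was highest, Control in blue and TBI in orange, with 95% Poisson intervals for counting error and 1 library per condition. Kitl in endothelial, Pdgfa in oligodendrocyte and Il34 in pericyte were level between libraries, while Pdgfrb in smooth muscle and Pdgfra in OPC were higher in TBI.

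In OPC-like cells, of which there were 27 in Control and 55 in TBI, both compared genes passed 1.5-fold, as did 34.3% of all genes there, whose median log2 ratio was 0.11. Pdgfra had 140 Control and 378 TBI UMIs, 675 and 1037 CPM, a ratio of 1.54 (1.26 to 1.88). On the precursor side of the split alone it was 1975 CPM (1660 to 2332) in 12 Control cells and 1744 CPM (1568 to 1934) in 34 TBI cells, and these intervals overlapped. Pdgfa had 50 and 33 UMIs, 241 and 90.6 CPM, a ratio of 0.38 (0.23 to 0.60). A single Control cell held 33 of the 50 UMIs, and without the top cell of each library Pdgfa was 92.9 CPM in Control and 69.5 CPM in TBI. Committed-side cells numbered 14 in Control and 19 in TBI. The 8 oligodendrocyte markers were at 24668 CPM in Control and 5612 CPM in TBI OPC-like cells, and their part in these ratios was not tested. In the 12 Control and 30 TBI cells with fewer than 5 UMIs of those markers Pdgfa had 1 and 5 UMIs. With cells thinned to 2000 UMIs and clustered anew the ratio of Pdgfa was 0.84 and that of Pdgfra 1.23.

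In NSC-like cells 5 of 5 compared genes were higher in TBI by 1.5-fold or more, and they rested on few molecules. Of all genes there, 10.3% passed either way, a share that covers genes of every depth past the limit. That limit of 20 UMIs is on the sum of both libraries. Pdgfra had UMIs in TBI alone, and Pdgfa had 8 in Control and 21 in TBI. The 2 shares are therefore not like for like. Kitl was the best counted, with 38 Control UMIs in 25 cells and 80 TBI UMIs in 47 cells, 13.3 and 35.6 CPM, a ratio of 2.68 (1.80 to 4.05). The ratio was 2.52 in cluster 20 and 2.75 in cluster 22, and 2.66 (1.78 to 4.06) in cells with fewer than 5 UMIs of the endothelial markers. That last limit kept 165 of 166 Control and 186 of 188 TBI cells, so it could change the ratio little. Endothelial markers moved with Kitl, at 36.1 CPM in Control and 92.2 CPM in TBI over all NSC-like cells. Kitl showed no such difference in RG-like cells, at 21.8 and 22.7 CPM, a ratio of 1.04 (0.69 to 1.58), and the difference between the NSC-like and RG-like ratios was not tested. Pdgfa had 8 and 21 UMIs, 2.80 and 9.36 CPM, a ratio of 3.34 (1.42 to 8.72). Csf1 had 11 and 13 UMIs, a ratio of 1.504 whose interval of 0.62 to 3.71 held 1.

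Pdgfra had no UMI in 166 Control NSC-like cells and 39 in TBI ones, at least 16.5-fold higher against a floor of 3 counts in the Control library, but these 39 UMIs came from 2 cells. Those 2 cells held 1031 CPM of Olig1 and 1194 CPM of Olig2, transcription factors of the oligodendrocyte lineage, against 1.57 and 0.984 CPM in the other 352 NSC-like cells. They also held Mki67, the proliferation gene, at 2442 CPM, and 1 of the 2 was a called doublet. Pdgfrb had 4 and 19 UMIs, a ratio of 6.04 (2.01 to 24.4), but 12 of the 19 were in 1 cell, and the ratio was 2.28 (0.58 to 10.6) without called doublets. In RG-like cells 1 of 4 compared genes passed 1.5-fold, against 10.5% of all genes, and it was Pdgfrb with 8 and 29 UMIs, a ratio of 3.15 (1.40 to 7.97). With cells of 5 or more pericyte-marker UMIs left out, 8 Control and 6 TBI UMIs of Pdgfrb remained in RG-like cells. Pericyte markers were at 10.7 CPM in Control and 153 CPM in TBI RG-like cells.

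Neither neuron-like nor astrocyte-like cells held a gene past 1.5-fold. In neuron-like cells this was 0 of 4 compared genes, against 7.45% of all genes, and Kitl was 51.6 CPM in Control and 65.6 CPM in TBI, a ratio of 1.27 (1.10 to 1.47). By cluster the ratio of Kitl was 1.83 (1.35 to 2.50) in cluster 1, from 37.8 to 69.1 CPM, and 1.11 (0.93 to 1.33) in cluster 8. In cluster 3, on 5 and 22 UMIs, it was 3.18 (1.18 to 10.8). In astrocyte-like cells it was 0 of 4, against 9.68% of all genes. Pdgfrb was 94.4 and 97.1 CPM there, a ratio of 1.03 (0.85 to 1.25), and Csf1 was 47.0 and 43.0 CPM, a ratio of 0.91 (0.68 to 1.22).

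In microglia-like cells, 38 in Control and 88 in TBI, 2 of 4 compared genes passed 1.5-fold, against 26.7% of all genes. Csf1r was 2224 CPM in Control and 1910 CPM in TBI, from 421 and 852 UMIs, a ratio of 0.86 (0.76 to 0.97). The ratio of Csf1r was 0.87 (0.77 to 0.98) in cluster 31 and 0.50 (0.32 to 0.79) in cluster 35, the latter on 51 and 35 UMIs. Pdgfb was 386 and 296 CPM, a ratio of 0.77 (0.57 to 1.04), and in cluster 31 alone 0.70 (0.52 to 0.95). Csf1 had 21 and 7 UMIs, 111 and 15.7 CPM, a ratio of 0.14 (0.05 to 0.35), and 13 of the 21 Control UMIs lay in 1 cell. Without the top cell of each library Csf1 was 44.5 CPM in Control and 11.4 CPM in TBI. Pdgfa had 11 and 17 UMIs, 58.1 and 38.1 CPM, a ratio of 0.66 whose interval of 0.29 to 1.55 held 1. In Cajal-Retzius-like cells, 33 in Control and 77 in TBI, 1 of 5 compared genes passed, against 26.4% of all genes. It was Il34 with 8 and 25 UMIs, a ratio of 2.32 (1.01 to 5.95). That ratio was 2.05 (0.87 to 5.34) without called doublets and 2.07 (0.90 to 5.33) in cells with fewer than 5 pericyte-marker UMIs. The limit on pericyte markers kept 32 of 33 Control and 76 of 77 TBI cells. With cells thinned to 2000 UMIs and clustered anew the ratio of Il34 was 0.87. The 8 pericyte markers went from 68.9 to 323 CPM in Cajal-Retzius-like cells and the endothelial markers from 59.0 to 306 CPM. Pdgfa was 180 and 268 CPM there, a ratio of 1.484 (1.06 to 2.09), which was 1.26 (0.89 to 1.82) in cells with fewer than 5 UMIs of the oligodendrocyte markers. Those markers stood at 2023 CPM in Control and 280 CPM in TBI Cajal-Retzius-like cells. Kit was 75.4 and 99.7 CPM, a ratio of 1.32 (0.78 to 2.31). In the 31 fibroblast-like cells, too few to compare, Pdgfra was 985 CPM in Control and 1039 CPM in TBI.

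**Figure D5:**
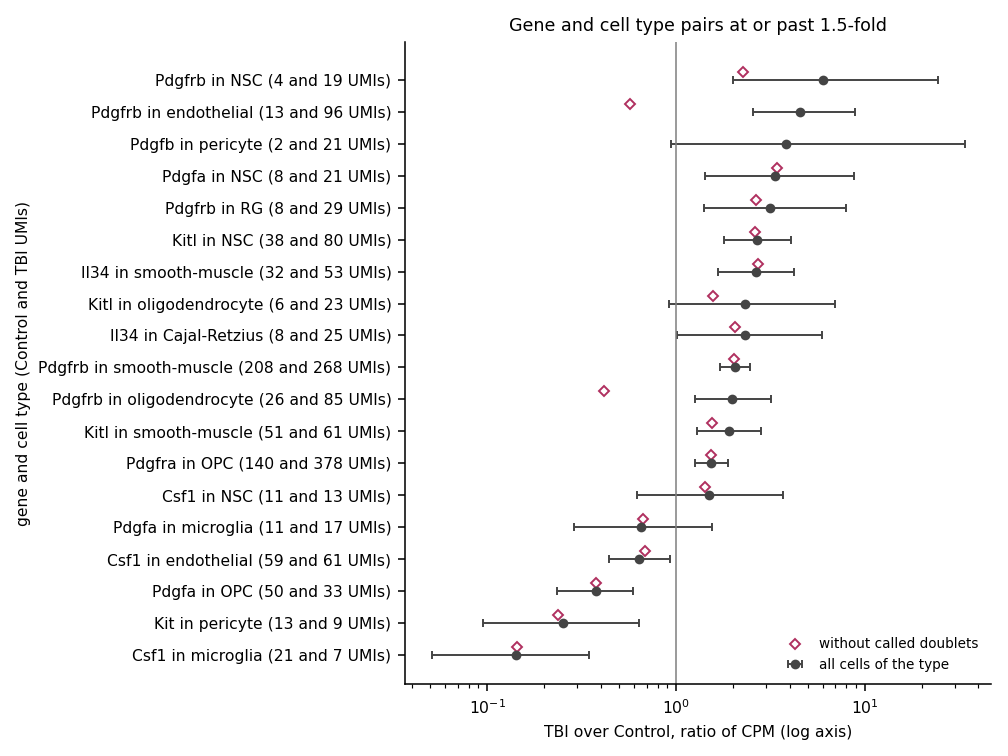
Ratio of TBI to Control CPM (horizontal axis, logarithmic, line at 1) for pairs of gene and cell type at or past 1.5-fold, with UMIs of both libraries named in the labels; black points with bars are all cells and their 95% counting intervals, open diamonds leave out called doublets. The pair with no Control UMI, Pdgfra in NSC, is left out, and the diamonds of Pdgfrb in endothelial and in oligodendrocyte lie on the other side of 1, at 0.57 and 0.42.

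Genes that work with these ligands and receptors were read from 3 lists with 37 genes in all. Of 10 related ligands, receptors and co-receptors, 56 pairs of gene and type passed the limit of 20 UMIs, and 14 were higher and 5 lower in TBI by 1.5-fold or more, 12 of these 19 with an interval that left out 1. The share over all genes was 7.45% to 34.3% by type, here and for the lists that follow. In OPC-like cells, where 34.3% of all genes passed 1.5-fold and oligodendrocyte markers were lower in TBI, Ptprz1, a receptor phosphatase of the lineage, was 1667 CPM in Control and 3104 CPM in TBI, a ratio of 1.86 (1.65 to 2.11). Lrp1 and Cspg4 were also higher in TBI in these cells, with ratios of 1.60 (1.22 to 2.13) and 1.501 (1.12 to 2.04). Cspg4, the pericyte and OPC proteoglycan NG2, had 1 Control and 32 TBI UMIs in endothelial-like cells, a ratio of 19.8 with an interval from 3.30 to 805, in the cells where pericyte markers were also higher.

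Of 18 shared adaptors and enzymes, 173 pairs passed the limit of UMIs. In TBI 11 were higher and 6 lower, and 11 of these 17 had an interval that left out 1. Gab1, an adaptor of receptor tyrosine kinases, was highest in oligodendrocyte-like cells at 309 CPM. It was higher in TBI in NSC-like and RG-like cells, with ratios of 1.70 (1.12 to 2.59) and 1.74 (1.16 to 2.65). The 8 oligodendrocyte markers were higher in TBI there too, at 113 and 180 CPM in NSC-like and 149 and 881 CPM in RG-like cells. Their part in these ratios was not tested. In OPC-like cells, where oligodendrocyte markers were lower in TBI, Gab1 was lower, at 0.49 (0.28 to 0.86). So was Ptpn11, the phosphatase SHP2, at 0.39 (0.25 to 0.60). Pik3r1, a regulatory subunit of PI3 kinase, was highest in pericyte-like cells at 315 CPM. Of 9 partners and proteases of the CSF1 and KIT axes, 39 pairs passed the limit of UMIs, 6 higher and 3 lower in TBI, and for 1 of these 9 the interval left out 1. Tyrobp, Spi1 and Irf8, an adaptor and 2 transcription factors of myeloid cells, were highest in microglia-like cells at 2270, 529 and 655 CPM, beside Csf1r. Pdgfc and Pdgfd, the other ligands, were highest in smooth-muscle-like cells at 49.8 CPM and in endothelial-like cells at 51.7 CPM, and Flt3, the remaining receptor of the class, was at 0.215 CPM or less in every type.

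The genes whose levels over 11 types in each library, 22 points in all, were most like those of each receptor or ligand were found by Pearson correlation of log2(CPM + 1) over 12071 genes. The nearest were Trem2 for Csf1r at 0.991, Ddit4l for Pdgfrb at 0.986, Rgs4 for Il34 at 0.978, Neu4 for Pdgfra at 0.937, Kctd10 for Kitl at 0.927, Tm6sf1 for Pdgfb at 0.920, Saraf for Csf1 at 0.875, Mta3 for Kit at 0.874 and Abhd16a for Pdgfa at 0.855. Trem2 and Neu4 were among the markers that named types, and points of one library share its depth. Among the 9 genes themselves Kit and Pdgfa were the closest pair, at 0.76, followed by Pdgfrb and Il34 at 0.74.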

How the data were processed

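Single-cell RNA-seq libraries from 10x Genomics v3 chemistry were analysed, 1 for Control and 1 for TBI. The authors aligned reads to GRCm38/mm10 and counted UMIs with Cell Ranger 3.0.2, and the deposited matrices hold these raw counts. The matrices were assigned to conditions from the barcodes that the study lists by condition: all 356 Control barcodes were found in the Control matrix and 0 in the TBI matrix, and all 320 TBI barcodes in the TBI matrix and 0 in the Control matrix.

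Of the 3086 Control and 5081 TBI barcodes, 3049 and 5036 passed a minimum of 200 genes and a limit on log UMI totals of 3 median absolute deviations either side of the library's median. Scrublet (scanpy 1.11.5) called 38 Control and 109 TBI doublets at an expected 0.8% per 1000 cells, and these were kept unless stated. Cells were clustered with Seurat 5.3.0 in R 4.3.3 on 2000 variable genes without Malat1 and the 9 genes, by canonical correlation integration on 20 dimensions, 20 principal components and resolution 3, so the clusters are rebuilt and are not the authors' own. Clusters were named only if 3 or more markers were each seen in 10% of cells. A name was withheld where the second type scored within 0.25 with no marker leading, where another type's markers led, or where median UMIs were under 0.333 of the cells' own library with no marker among the 10 leading genes.

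Levels, ratios and intervals were computed in Python 3.11.15 with numpy 2.4.6, pandas 2.3.3 and scipy 1.17.1, and figures in matplotlib 3.10.9. The intervals were tested on counts simulated from the Poisson and binomial models they assume. That check cannot speak for UMIs that gather in single cells. No pseudocount was used for the ratios given, and a floor of 3 counts was used for a stated fold where a library had none. For calls past 1.5-fold, counts of 0 were replaced by a small positive value, so that Pdgfra in NSC-like cells could be called. Comparison needed 20 UMIs over both libraries and 20 cells in each. As animals were pooled, no test was made and intervals cover counting error within 2 libraries. The counts are of the 3′ ends of RNA molecules and were not divided by gene length, so levels of different genes were not ranked against each other. The genes named are the 9 genes in every type, the 37 pathway genes and the most similar genes by correlation among genes with at least 200 UMIs. Genes, markers and lists were chosen with earlier results of these data known. Alternatives are given in the closing section.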

Additional observations from a re-analysis of the deposited data

How the results depend on the processing

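No paired analysis was possible because each condition was a single library. Over 12 alternative settings, 87 of 108 levels in the leading type and 105 of 108 ratios stayed within the counting interval, and 12 of 13 counts of pairs past 1.5-fold stayed within 1.5 times of 20. Leaving mitochondrial, ribosomal protein and hemoglobin genes out of the total raised levels to 417 CPM for Pdgfa, 382 for Pdgfb, 1032 for Pdgfra, 2403 for Pdgfrb, 1082 for Kitl, 79.8 for Csf1, 2479 for Csf1r and 356 for Il34. Cells thinned to 2000 UMIs were clustered and named anew for this comparison. With them Pdgfra was 1106 CPM with a ratio of 1.23, Pdgfrb 2259 CPM and Kit 116 CPM with a ratio of 0.754. Past 1.5-fold were 4 of 24 pairs, or 16.7% against 40% of 50. As a mean over cells, Pdgfra was 1094, Pdgfrb 2259, Kit 145 and Csf1r 1826 CPM, and the Pdgfrb ratio 0.884. A mitochondrial limit of 10% gave 832 CPM for Kitl. Removing doublets before clustering gave 2241 CPM for Pdgfrb and 809 for Kitl. Pdgfrb was 2226 CPM without integration, 2221 at resolution 1.5 and 2225 without clusters of over 10% doublets, the last an alternative chosen after seeing the data, as was adding unnamed clusters to the nearest type. The leading type of Pdgfb became microglia-like with a limit of 2 median absolute deviations, the 10% mitochondrial limit, the reduced total and unnamed clusters added. Among single pairs, Pdgfrb in oligodendrocyte-like cells turned direction, to 0.419 with doublets removed, 0.531 without integration, 0.613 with the 9 genes kept among the variable genes and 0.583 without doublet-rich clusters. When thinned, Il34 was 0.870 in Cajal-Retzius-like and 1.14 in smooth-muscle-like cells, Pdgfa in OPC-like cells 0.837 and Kitl in NSC-like cells 5.26. The causes were not tested. Pdgfrb in endothelial-like cells ranged from 1.25 to 6.54 over the settings, in NSC-like cells from 3.15 to 40.1 and in RG-like cells from 1.83 to 5.28, and Pdgfa in NSC-like cells from 1.80 to 3.34. Depth limits what can be said of pairs with under 50 UMIs, among them all of those in NSC-like cells except Kitl.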
